A study of Arabidopsis thaliana and Ginkgo biloba and Brassica rapa with 13 samples.

Results

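Position C960 of the mitochondrial small subunit (SSU) 18S rRNA, numbered from the 5′ end of the Arabidopsis reference, is 1 of 16 rRNA sites in the deposited methylation table. It was taken as the row named Mitochondrial-18S rRNA, with the value of each species and with the mitochondrial SSU reference sequences of the 5 species for which one was used here. The values come from RNA bisulfite sequencing (RBS-seq) of total RNA from 6 wild type species. *Arabidopsis thaliana* (At) was sampled as seedlings at 10 days after germination in 3 libraries. *Brassica rapa* (Br), *Triticum durum* (Td, flag leaf), the macroalga *Caulerpa taxifolia* (Ct, fronds), the gymnosperm *Ginkgo biloba* (Gb) and the single-celled alga *Nannochloropsis oculata* (No, cells) had 1 library each. The tissue of *B. rapa* and *G. biloba* was leaf in the labels and shoot apex in the methods of the study. Species and tissue therefore cannot be told apart in most comparisons below.

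The small ribosomal subunit holds the messenger RNA and reads it with the help of its rRNA, and several bases of that rRNA carry methyl groups where the transfer RNAs bind. In the bacterium *Escherichia coli*, the cytosine of the matching hairpin loop faces the transfer RNA in the P site and is made into 5-methylcytosine (m5C) by the enzyme RsmB, also called Fmu. Plant mitochondria and chloroplasts descend from bacteria and keep ribosomes of that kind, each with its own SSU rRNA encoded in the organelle. Bisulfite deaminates cytosine but leaves m5C, so the share of reads that still show a cytosine at a position is taken as its methylation level. The authors call such sites candidates, because some further cytosine modifications resist bisulfite too.

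In Arabidopsis, C960 lies at mitochondrial genome position 127264 of assembly TAIR10.1, minus strand. It is inside the annotated rRNA gene rrn18, which spans 126289 to 128223 and makes a noncoding RNA, so the site is in no coding exon, intron or UTR. The gene has the same 1935 bases in length as the deposited reference. The sequence around the site is shown for the 5 mitochondrial references because the comparisons turn on it. Each line gives 20 bases on both sides, 5′ to 3′ as DNA, and the capitals mark C960 and the base before it.
Arabidopsis mitochondrial 18S: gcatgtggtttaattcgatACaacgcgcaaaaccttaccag
Brassica rapa mitochondrial 18S: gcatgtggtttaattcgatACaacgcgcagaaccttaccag
Triticum durum mitochondrial 18S: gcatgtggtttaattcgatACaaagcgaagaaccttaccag
Caulerpa taxifolia mitochondrial 18S: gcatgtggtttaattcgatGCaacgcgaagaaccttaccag
Ginkgo biloba mitochondrial 18S: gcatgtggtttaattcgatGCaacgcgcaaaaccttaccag

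The chloroplast 16S rRNA has its own listed SSU site, C916, and C960 aligned to C916 of the same species in 5 of 5 species. The chloroplast lines below show, with the same marking around C916, how close the 2 organelles are at this place.
Arabidopsis chloroplast 16S: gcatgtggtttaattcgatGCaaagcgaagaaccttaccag
Triticum durum chloroplast 16S: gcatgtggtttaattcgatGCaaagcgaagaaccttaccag
Caulerpa taxifolia chloroplast 16S: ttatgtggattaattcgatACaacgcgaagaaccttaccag
Ginkgo biloba chloroplast 16S: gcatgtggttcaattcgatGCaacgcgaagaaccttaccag
The chloroplast reference of *B. rapa* lacks 15 bases, from 19 to 5 bases before C916, and was therefore not set beside the others base by base.

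In the Mitochondrial-18S rRNA, C960 was methylated at 28% in *A. thaliana*. The level was 70% in *C. taxifolia*, 73% in *B. rapa*, 75% in *T. durum* and 78% in *G. biloba*. The table lists the base A, and no percentage, for *N. oculata*, whose mitochondrial SSU reference was not used here, so that the listed base was not checked. The other 4 species with a cytosine lay within 8 percentage points of each other, and *A. thaliana* was 42 points under the lowest of them and 46 points under their median of 74%. For Arabidopsis the table gives the authors' mean over 3 libraries with no error, and each other value comes from 1 library, so none of these differences could be tested against replicate spread. The order of *C. taxifolia*, *B. rapa*, *T. durum* and *G. biloba* is likewise not established. No read counts per site were used with the percentages, and the depth behind each is unknown here.

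All 5 percentages at C960 reached the authors' calling threshold of 20%, against 70.3% of the 74 percentages in the whole table. At a threshold of 50%, 4 species would be called, without *A. thaliana*. Each of the 5 references holds between 7 and 9 other cytosines within 20 bases of C960. None of those neighbouring cytosines is a listed site.

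**Figure D1:**
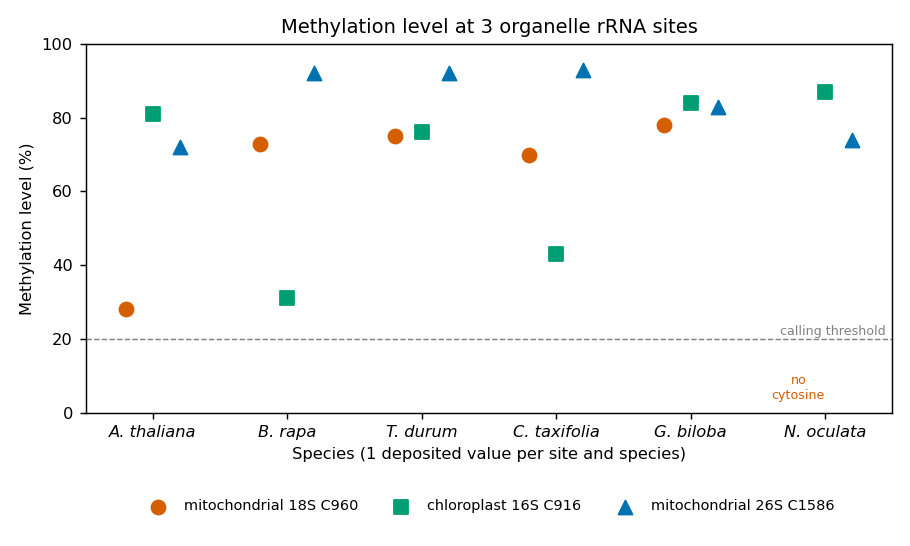
Methylation level (%) at mitochondrial 18S C960 (circles), chloroplast 16S C916 (squares) and mitochondrial 26S C1586 (triangles), with 1 deposited value per site and species and no error bars because the values carry no error. *A. thaliana* has the lowest circle, at 28%, and the circles of 4 species lie from 70% to 78%. The dashed line is the 20% calling threshold.

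In 4 of 5 species, C960 was the lowest or second lowest of the called sites. In *A. thaliana* it was the lowest of 7 called sites, with the next at 66% and the highest at 82%. It was the second lowest of 7 in *B. rapa*, where chloroplast C916 was lowest at 31%, on a reference that lacks 15 bases just upstream. It was the second lowest of 8 in *C. taxifolia*, where C916 was lowest at 43%. In *G. biloba* it was also second lowest of 7, but there the lowest called site, at 77%, was within 1 point of it. In *T. durum* it ranked 7th from the bottom of 14, above a group of 6 sites in the nuclear 18S rRNA at 52% to 53%. No other called site of *T. durum* was below it. The authors propose that the clustered sites of that group may be failed conversion in strongly folded rRNA.

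The gap between *A. thaliana* and the other species at C960 was set beside the same gap at other sites. At the other 6 sites called in Arabidopsis, the Arabidopsis level minus the median of the 4 species ran from −20 to 21.5 points, against −46 points at C960. It was positive only at chloroplast C916. Arabidopsis was lower at mitochondrial 26S C1586 (−20), chloroplast 23S C1940 (−14) and nuclear 25S C2268 (−12.5). It was also lower at chloroplast 23S C1977 (−8) and nuclear 25S C2860 (−1). Mitochondrial 26S C1549, not called in Arabidopsis, had a gap of −40.9 points on the same measure, but *A. thaliana* was not the only low species there. It was at 8% in *A. thaliana*, between 13.8% in *B. rapa* and 1.63% in *G. biloba*, while *T. durum* and *C. taxifolia* were at 89% and 84%. A gap as wide as that at C960 was thus not seen at the other 6 called sites of the same Arabidopsis libraries.

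Chloroplast C916 gave a different order of species. In *A. thaliana* C960 was at 28% and C916 at 81%, a difference of −53 points. In *B. rapa* C960 was at 73% and C916 at 31%, a difference of 42 points in the other direction. In *C. taxifolia* C960 was also the higher of the pair, with 70% against 43%. The 2 sites were close in *G. biloba*, at 78% and 84%, and in *T. durum*, at 75% and 76%. *N. oculata*, which has no cytosine listed at C960, had 87% at C916. The low listed value was thus that of *A. thaliana* at the mitochondrial site and those of *B. rapa* and *C. taxifolia* at the chloroplast site. The *B. rapa* reference behind its C916 level lacks 15 bases, from 19 to 5 bases before that site. Whether this affected the 31% was not tested.

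Levels at C960 were below those at C1586 of the mitochondrial large subunit 26S rRNA in 5 of 5 species. The difference was −44 points in *A. thaliana*, where C1586 was at 72%. In the other species it was smaller, from −23 points in *C. taxifolia* over −19 in *B. rapa* and −17 in *T. durum* to −5 in *G. biloba*. C1586 was at 93%, 92%, 92% and 83% in these 4 species in the same order. Whether chloroplast sequence occurs in the 26S references at C1586 was not examined here. The 3 listed mitochondrial 26S sites spanned a wide range in Arabidopsis, from 1% at C1566 to 72% at C1586. Of the 8 other sites with a percentage in all 5 species, C1586 and chloroplast 23S C1940 had the pattern most like C960 once each site was centred on its own median. Their centred levels differed from those of C960 by a mean of 9 percentage points over the 5 species, with chloroplast 23S C1977 almost level at 9.2. Without centring the order changed, and nuclear 25S C2268 was nearest with a mean difference of 13.8 points, against 15 for C1940 and 21.6 for C1586. C916 differed by 26 points on the centred measure. With 5 species and 1 value each, these are descriptions of likeness only.

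The cytosine itself was present in all 5 mitochondrial references in the MAFFT alignment. A percentage is listed only where a species has a cytosine, and these are the species with a percentage. Its presence in all of them was therefore set by the choice of species. Of the 356 Arabidopsis cytosines that could be judged, 51.4% were a cytosine in all 5, and C960 cannot be measured against that share. Identity to Arabidopsis over 10 bases on each side averaged 90% over the 4 other species, and the median over 376 Arabidopsis cytosines was 85%. Of those cytosines, 66.8% had a lower value, so the flanks of C960 were only moderately more alike than usual for this rRNA. Over the wider 41 bases shown above, 37 positions were the same in every reference.

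The differences from Arabidopsis lay close to the site and on its 3′ side, apart from the base directly before it. They are named with the Arabidopsis base, its position and the other species' base. *B. rapa* had A969G alone. *G. biloba* had A959G alone, which is the base directly before C960. *T. durum* had C963A, C967A and A969G, and *C. taxifolia* had A959G, C967A and A969G. The base before the site was thus A in *A. thaliana*, *B. rapa* and *T. durum*, and G in *C. taxifolia* and *G. biloba*. Levels of 28% and 73% were listed beside the same preceding base and the same 8 bases after the site, in *A. thaliana* and *B. rapa*. These 2 references differed at 1 of the 41 positions while their levels differed by 45 points.

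The 11 bases tttaattcgat, which end 2 bases before C960, were searched on both strands of all deposited rRNA references. They occurred in 5 of 5 mitochondrial and 3 of 6 chloroplast SSU references, and in none of the others, or 12.7% of 63 references in all. This match is a description of shared letters.

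The positions that vary around C960 among the mitochondrial references are also those that separate the 2 organelles in Arabidopsis. Between the Arabidopsis mitochondrial and chloroplast rRNAs, the 41 bases differed by A959G, C963A, C967A and A969G, written with the mitochondrial base first. The 3 changes that *T. durum* showed against the Arabidopsis mitochondrial reference are all in that set, and so are the 3 of *C. taxifolia*. The single changes of *B. rapa* (A969G) and *G. biloba* (A959G) are in it too, so the set does not single out any species. Between the mitochondrial and chloroplast references of *T. durum* itself, only the base before the site differed (A936G in its own numbering, where C960 is position 937). In *C. taxifolia* the 2 organelles differed at 4 of the 41 positions and in *G. biloba* at 3.

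How the references were made differs between species. The Arabidopsis, *B. rapa* and *G. biloba* references, of 1935, 1848 and 1773 bases, were database sequences without N. Those of *T. durum* and *C. taxifolia* were built by the authors from RNA-seq reads guided by the Arabidopsis sequence. They hold 109 N in 1859 bases and 402 N in 1816 bases, the nearest at 250 and 216 bases from C960. Over the whole rRNA, identity to the Arabidopsis mitochondrial reference was 94.5% for *B. rapa*, 86.8% for *G. biloba*, 81.2% for *T. durum* and 73.2% for *C. taxifolia*. Identity to the chloroplast 16S of the same species was near 70% for the 3 database sequences (70.9% for Arabidopsis, 70.5% for *B. rapa*, 70.2% for *G. biloba*). It was 88.4% for *T. durum* and 78.0% for *C. taxifolia*, so both guided references were closer to their own chloroplast rRNA than to the Arabidopsis mitochondrial rRNA. For both, the closest of all other organelle SSU references was the chloroplast one of the same species, whereas the 3 database references were each closest to another mitochondrial one. In *C. taxifolia* the chloroplast references of *A. thaliana* and *G. biloba* were nearly as close, at 77.7% and 77.6%.

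Part of the *T. durum* mitochondrial reference was the same as its chloroplast reference. Exact blocks of 31 bases or more covered 940 of its 1750 bases without N, or 53.7%, in 6 blocks of 56 to 389 bases. Of its windows of 31 bases, 45% occurred in its own chloroplast 16S and 10% in the Arabidopsis mitochondrial 18S. The corresponding share for the chloroplast was 0.42% for Arabidopsis, 2.87% for *C. taxifolia*, and 0% for both *B. rapa* and *G. biloba*. Outside the blocks the *T. durum* reference was 88.9% identical to the Arabidopsis mitochondrial rRNA and 67.5% to its own chloroplast rRNA over 810 bases. Inside the blocks, where the match to the chloroplast follows from how the blocks were chosen, identity to the Arabidopsis mitochondrial rRNA was 74.6%.

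C960 of *T. durum* lies in such a block. Positions 776 to 992 of that reference, 217 bases, differed from the chloroplast 16S at 1 position, 936, which is the base directly before C960. There the mitochondrial reference has the A of the Arabidopsis mitochondrial reference that guided it. The longest exact run through C960 shared with the own chloroplast rRNA was 56 bases in *T. durum*. It was 5 bases for Arabidopsis and *B. rapa*, 16 for *G. biloba* and 21 for *C. taxifolia*. Over 61 bases centred on the site, identity to the own chloroplast was 98.4% in *T. durum*, against 91.8% to the Arabidopsis mitochondrial rRNA. In *G. biloba* the order was the reverse, with 90.2% and 96.7%, and in *C. taxifolia* both were 90.2%.

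**Figure D2:**
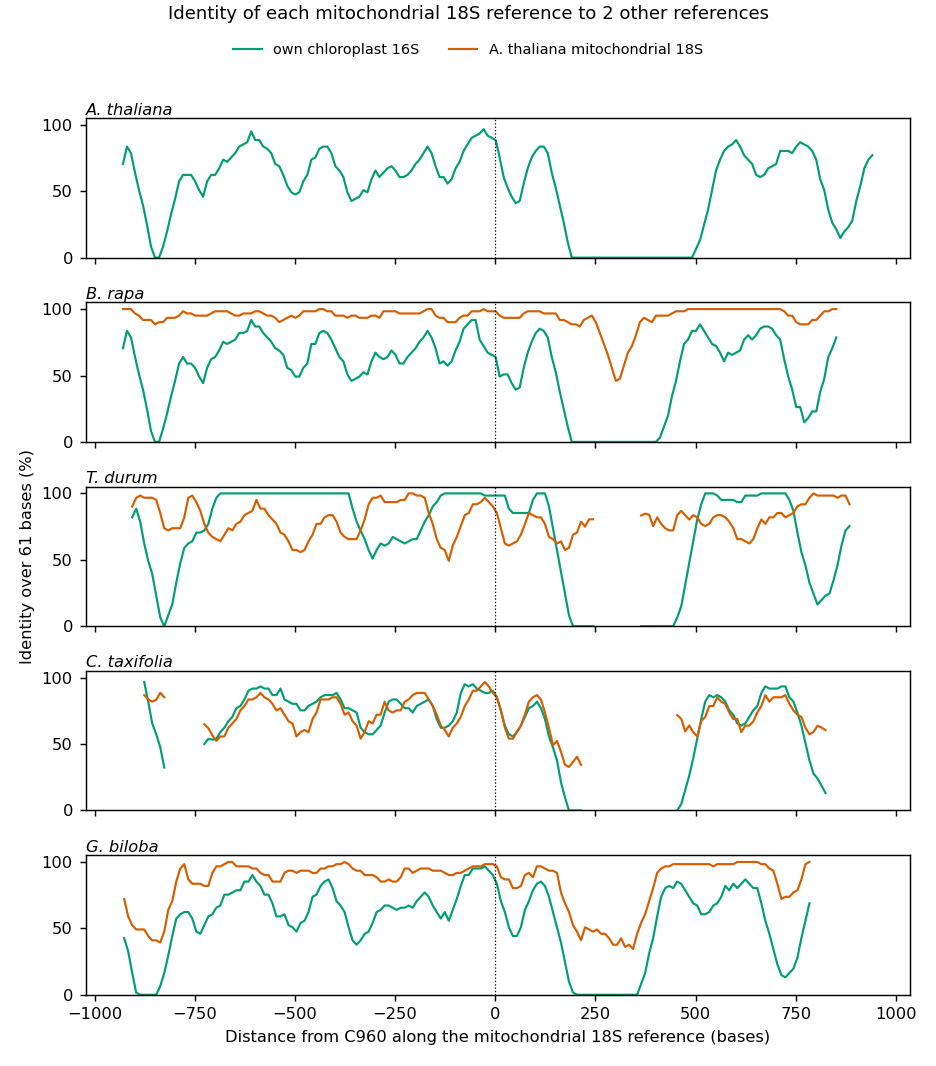
Identity (%) of each mitochondrial 18S reference, in windows of 61 bases placed every 10 bases, to the chloroplast 16S of the same species (green) and to the Arabidopsis mitochondrial 18S (orange), by distance from C960 in bases. A base with no counterpart counts as different, so stretches that the chloroplast rRNA lacks lie at 0, windows with more than 30 N are not drawn, and other windows with N are scored over their remaining bases. The *T. durum* lines change places along the rRNA and the green one is the higher at C960, while in *B. rapa* and *G. biloba* the orange one is the higher throughout.

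Among windows of 61 bases without N, the *T. durum* reference was closer to its own chloroplast in 92 of 163 and the *C. taxifolia* one in 79 of 124. The counts were 0 of 179 in *B. rapa* and 0 of 172 in *G. biloba*. The match to the chloroplast thus also occurs in *C. taxifolia* over the rRNA as a whole, but there without long exact blocks at C960.

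Because reads were aligned to references with every C turned into T, fragments over C960 were compared after the same change, which removes C to T differences. In *G. biloba* the run shared with the chloroplast then grew to 69 bases, positions 895 to 963 of its reference, where C960 is position 957. In *A. thaliana* it grew to 10 bases and in *B. rapa* to 9, and it stayed at 56 in *T. durum* and 21 in *C. taxifolia*. Of all fragments of 35 bases that cover C960, 20% in *G. biloba* and 2.86% in *T. durum* occurred exactly in the own chloroplast 16S, and 0% in the other 3 species. At 75 bases the share was 0% in all 5 species. For *B. rapa* these shares are limited by its chloroplast reference, which lacks 15 bases just upstream of the site, because no gaps were allowed.

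With 1 mismatch allowed, *T. durum* stood apart. All of its fragments of 35 and of 50 bases over C960 then occurred in the chloroplast 16S, 74.7% of those of 75 bases and 56% of those of 100 bases. In *G. biloba* the shares were 25.7%, 18%, 5.33% and 0% at the same 4 lengths. In *A. thaliana* they were 8.57%, 6%, 0% and 0%, and in *B. rapa* and *C. taxifolia* 0% at all 4. The 0% of *B. rapa* carries the limit of the 15 missing bases and is not a fair contrast to *T. durum*. Within positions 776 to 992 a single base, the one next to the site, separates the 2 organelle references of *T. durum*. Its C960 level was 75% and its C916 level 76%. Whether chloroplast reads enter the *T. durum* value was not tested, since no reads or coverage were used here. Without *T. durum* the median over species was 71.5% and the Arabidopsis gap −45 points.

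**Figure D3:**
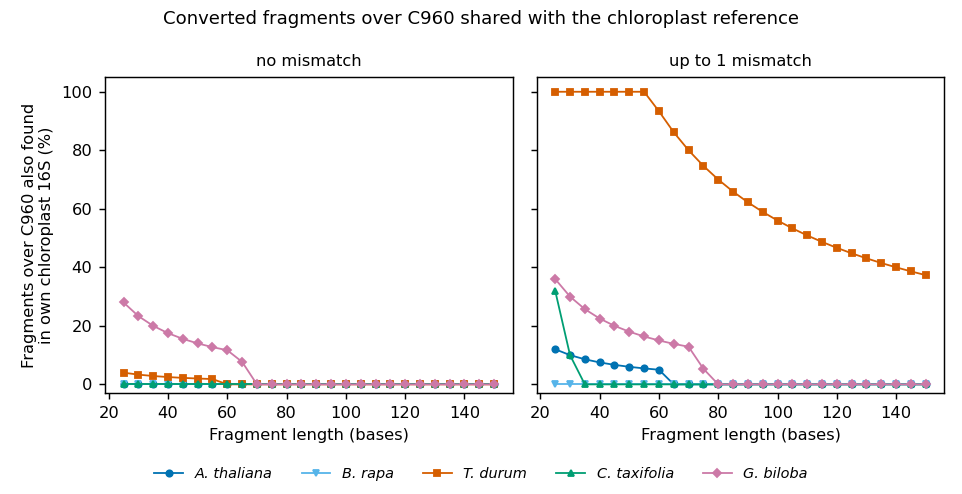
Share (%) of all bisulfite-converted fragments covering C960 that also occur in the chloroplast 16S of the same species, by fragment length in bases, with no mismatch (left) and up to 1 mismatch (right). With 1 mismatch every *T. durum* fragment of up to 55 bases occurs there, against at most 36% in any other species at the lengths drawn. The *B. rapa* chloroplast reference lacks 15 bases just upstream of the site, which limits its shares.

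In the Arabidopsis genome, the 41 bases around C960 occurred 1 time. A BLASTN search with the whole rRNA gave 10 matches, of which 3 cover C960. These were rrn18 itself and 2 copies of the chloroplast 16S gene at 74.2% identity. Of the nuclear genome, 2 stretches on chromosome 2 matched other parts of the rRNA and neither covers C960.

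The site is known in bacteria as a loop base, and pairing was therefore predicted for the 5 references. In 61 bases at 37 C, the probability that C960 is paired was 0.075 for Arabidopsis and lower still for *B. rapa* (0.0279) and *T. durum* (0.00588). It was 0.264 for *C. taxifolia* and 0.870 for *G. biloba*. The chloroplast 16S of *T. durum*, which differs in these 61 bases only at the base before the site, had 0.707 at C916. The low *T. durum* value thus turns on that base, in a stretch that otherwise equals its chloroplast reference. Over 5 settings of window and temperature the Arabidopsis value ran from 0.075 to 0.496, the *B. rapa* value from 0.0279 to 0.333 and the *T. durum* value from 0.00173 to 0.111. The *C. taxifolia* value ran from 0.0408 to 0.527. In *G. biloba* it stayed between 0.724 and 0.958, and the most likely partner in 61 bases was the G 20 bases upstream, with a probability of 0.683. When the whole reference was folded, C960 was less often paired than the median cytosine in 4 of 5 species. The pairing probability was 0.167 in *A. thaliana*, against a median of 0.896 over all cytosines of that reference, with 8.62% of the cytosines below it. In *G. biloba* it was 0.958, against a median of 0.905.

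Among the bases that could close a hairpin around the site are the ggttt that starts 14 bases before C960 and the 5 bases that end 13 bases after it. The second stretch reads aaacc in *A. thaliana* and *G. biloba* and gaacc in the other 3 species, where A969G falls on its first base and leaves a G opposite a T. The predicted probability of this stem varied with the setting, from 0.149 to 0.574 for Arabidopsis and from 0.0862 to 0.413 for *B. rapa*. It ran from 0.134 to 0.894 for *T. durum*, from 0.125 to 0.857 for *C. taxifolia* and from 0.0709 to 0.423 for *G. biloba*. *T. durum* and *C. taxifolia* also hold a nearer complementary pair, ttcg at distances −7 to −4 from C960 and cgaa at distances 5 to 8. C967A falls on the second of these. In 61 bases at 37 C, the pairing probabilities over ttcg were 0.933, 0.995, 0.998 and 0.926 in *T. durum*. They were 0.689, 0.942, 0.960 and 0.839 in *C. taxifolia*. The probability of this nearer stem as a whole was not computed. The predictions contain no protein, transfer RNA or modified base. The ranges of the pairing probability at C960 overlapped between *A. thaliana* and *B. rapa*, whose levels were 28% and 73%. The highest level, 78% in *G. biloba*, stood beside the highest pairing probability. Whether level and predicted pairing are related was not tested.

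**Figure D4:**
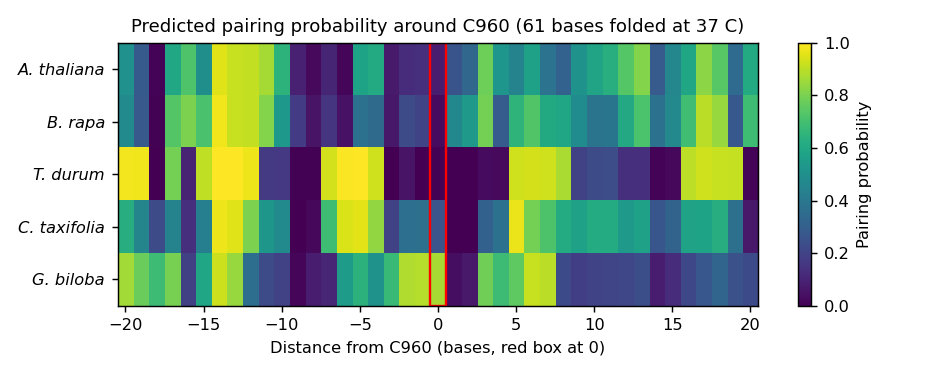
Predicted pairing probability (colour, 0 to 1) of each base from 20 before to 20 after C960, in the 61 bases around the site folded at 37 C, for the 5 mitochondrial references. Inside the red box C960 is dark in *A. thaliana*, *B. rapa* and *T. durum* (0.075, 0.0279 and 0.00588) and light in *G. biloba* (0.870).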

How the data were processed

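RBS-seq and RNA-seq libraries (8 and 5) were made from total RNA of 6 species. The authors aligned bisulfite reads with CLC Genomics Workbench, version not given in the sources used here, to rRNA references with every C turned into T, and used an in vitro transcribed RNA without m5C as conversion control. The deposited values are percent methylation, mapped C over mapped C plus T, called by the authors at a minimum coverage and 20%. They were used as deposited. The table mixes percentages with base letters. It gives no depth per site, and the study's read totals per library were not used here. No p-value between species was computed, and the only rule applied across species was one for outlying values, which compares the gap to the nearest value with the range.

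The labels name the build TAIR10, and coordinates are those of TAIR10.1. References were aligned with MAFFT 7.526 (local pairs, 100 iterations), searched with BLASTN 2.17.0 (E-value 1e-10) and folded with ViennaRNA 2.7.2. The pairwise alternative used Biopython 1.88 (match 2, mismatch -3, gap opening -5, extension -2). Fragments were taken in the sense direction and compared without gaps. Steps were tested on simulated sequences.

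The site, the compared sites and the settings were chosen with earlier results of these data known. The named sites were C960, C916, the mitochondrial 26S sites and the 2 with the most similar pattern over species; C1549 and the 6 nuclear 18S sites were named after their values were seen. The mitochondrial SSU reference of *N. oculata* and the RNA-seq libraries were not used here.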

Additional observations from a re-analysis of the deposited data

Results flagged for a closer look

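The Arabidopsis level of 28% at mitochondrial 18S C960 lay far from the levels of the other 4 species. Its gap to the nearest value was 0.84 of the whole range of 50 percentage points. The rule flags about 1 in 20 sets of this size by chance when all values are independent draws from the same normal distribution. The 5 species are no replicates of one another and the site was not picked blind, so that rate need not hold here. The value is a mean of 3 libraries whose separate values were not used here, so its spread is unknown.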

How the results depend on the processing

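Of 25 alternatives, 5 left the value unchanged, 2 changed a count of species by 1, 18 moved the value and 0 reversed a direction. At a threshold of 50% the species called were 4, against 5. The median level of 73% became 71.5% without *T. durum*, 74% without *C. taxifolia* and 74% without *A. thaliana*. The Arabidopsis gap of −46 points became −45 without *T. durum* and −47 without *C. taxifolia*. Flank identity, 90% over 10 bases on each side, was 92.5% over 5, 95% over 20 and 94.2% over 30. The *T. durum* share of windows found in its chloroplast 16S, 45% at 31 bases, was 48.7% at 21 and 38.8% at 51. Its share of fragments over C960 found there, 0% at 75 bases without mismatch, was 2.86% at 35 bases and 2% at 50. It was 76% at 75 bases with up to 2 mismatches, and 74.7% with 1, an alternative chosen after seeing the data. The Arabidopsis pairing probability of 0.075 was 0.496 in 41 bases, 0.373 in the longest window short of the whole rRNA, 0.167 in the whole reference and 0.0834 at 70 C. A cytosine aligned to C960 in 4 other species, and in 3 when each reference was aligned to Arabidopsis alone, where *C. taxifolia* had a gap. Leaving out each Arabidopsis replicate was not run, because its values stand in the table as a mean. No paired analysis was possible because each species has 1 value and no comparison between species was tested with a p-value. Depth limits every level here and is unknown.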
